A study of Mus musculus with 2 samples.

Results

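The Mir181 family of the mouse is made up of 6 miRNA genes, Mir181a-1, Mir181b-1, Mir181a-2, Mir181b-2, Mir181c and Mir181d, which lie in 3 clusters of 2. Its members were chosen by name, through their gene identifiers, and all 6 were found among the 1973 miRNA genes listed in the count tables. The counts came from small RNA libraries of skeletal muscle of newborn mice of strain B6NCrl, taken at postnatal day 0. The series holds 1 group of 2 libraries, 1 from each of 2 pups carried by the same pregnant female, named here replicate 1 (pup 1) and replicate 2 (pup 2). The labels give both pups 1 donor identifier and no allele or treatment, and sex was not collected. With 1 group there was no contrast between conditions, so the clusters were compared within each library, and the libraries were compared with each other.

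A miRNA gene is transcribed as part of a longer RNA that folds into a hairpin. The nucleases Drosha and Dicer cut the hairpin into a 5p arm and a 3p arm, and the arm retained by an Argonaute protein pairs with target mRNAs, mainly through its seed, bases 2 to 8. The miR-181 family is best known from developing lymphocytes. In skeletal muscle it is known to increase as myoblasts differentiate, where the homeobox gene Hoxa11 is a described target.

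The 5p arms are shown first because they decide which genes can be told apart by a read. Capitals mark the seed, and the sequences are those of RefSeq for build GRCm38.p6, which held mature sequences for all 6 genes.
miR-181a-5p (Mir181a-1 and Mir181a-2): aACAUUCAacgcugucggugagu
miR-181b-5p (Mir181b-1 and Mir181b-2): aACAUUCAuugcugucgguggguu
miR-181c-5p (Mir181c): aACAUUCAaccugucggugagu
miR-181d-5p (Mir181d): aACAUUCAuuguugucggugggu

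All 6 genes carried the seed ACAUUCA in their 5p arm, and no other gene of that table did. Counted from the 5′ end, miR-181b-5p differed from miR-181a-5p by A9U, C10U and A21G over 23 bases, and miR-181d-5p differed from miR-181b-5p by C12U alone. Removing base 11 of miR-181a-5p gave miR-181c-5p exactly. The 5p arms of Mir181a-1 and Mir181a-2 were identical to each other, as were those of Mir181b-1 and Mir181b-2, so a read of either arm has more than 1 place of origin. Mir181c and Mir181d each had a 5p arm of their own.

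The 3p arms, shown with bases 2 to 8 in capitals, were different in all 6 genes.
miR-181a-1-3p: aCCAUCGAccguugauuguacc
miR-181a-2-3p: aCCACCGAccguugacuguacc
miR-181b-1-3p: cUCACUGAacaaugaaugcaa
miR-181b-2-3p: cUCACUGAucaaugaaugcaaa
miR-181c-3p: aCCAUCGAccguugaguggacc
miR-181d-3p: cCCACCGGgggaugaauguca

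From miR-181a-1-3p to miR-181a-2-3p the differences were U5C and U16C, the first of them inside bases 2 to 8. From miR-181b-1-3p to miR-181b-2-3p the one substitution over 21 bases was A9U. The 3p arm of Mir181c shared bases 2 to 8 with that of Mir181a-1 and differed from it by U16G and U19G, although those genes lie on different chromosomes.

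The hairpins of the genes with a shared arm show how far the identity goes beyond the arm. Capitals mark the bases that lie in a run of at least 20 also present in the hairpin of the gene with the same 5p arm.
Mir181a-1: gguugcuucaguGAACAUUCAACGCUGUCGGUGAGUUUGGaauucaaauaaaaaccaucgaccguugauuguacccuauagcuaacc
Mir181a-2: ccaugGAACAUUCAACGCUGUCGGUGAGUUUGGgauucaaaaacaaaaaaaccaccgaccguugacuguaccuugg
Mir181b-1: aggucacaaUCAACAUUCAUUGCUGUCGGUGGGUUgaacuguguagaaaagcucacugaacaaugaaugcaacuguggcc
Mir181b-2: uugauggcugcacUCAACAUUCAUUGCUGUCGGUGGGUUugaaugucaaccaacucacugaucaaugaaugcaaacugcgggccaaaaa

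The common stretch was 28 bases in the Mir181a genes and 26 bases in the Mir181b genes, and in all 4 it spanned the whole 5p arm. None of the 4 3p arms touched it. In Mir181c and Mir181d 0 bases lay in such a stretch, over comparison with 2202 annotated mouse miRNA hairpins. The longest run that Mir181c shared with a family member was 17 bases, with Mir181a-1 and with Mir181a-2. A genome sequence was not used here, so copies outside miRNA hairpins were not looked for.

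**Figure D1:**
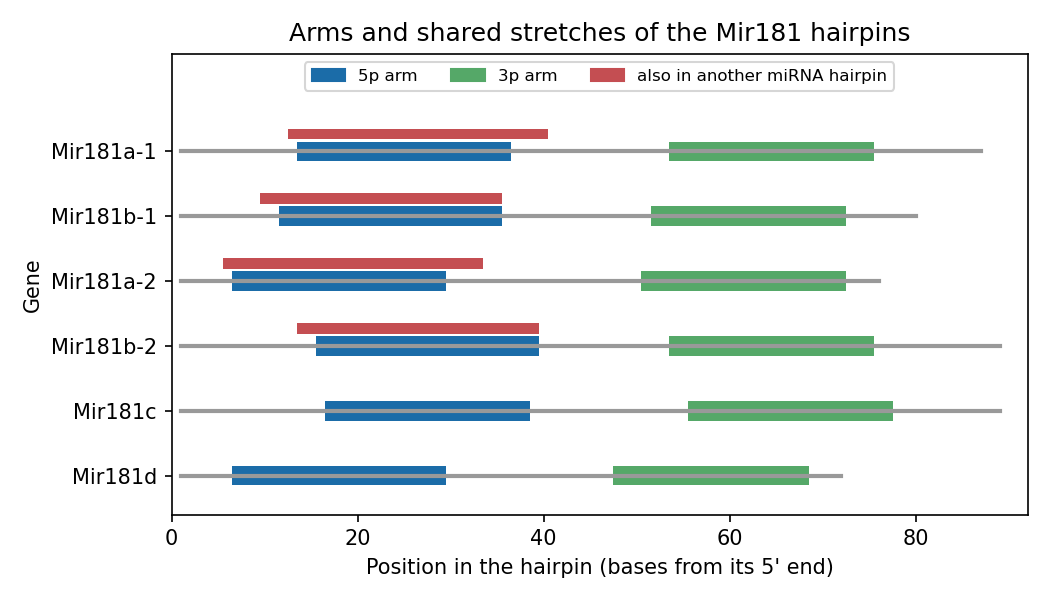
Positions of the 5p arm (blue) and 3p arm (green) along each Mir181 hairpin (grey line), in bases from its 5′ end, with stretches of at least 20 bases also found in another miRNA hairpin drawn in red above it. The red stretch covers the whole 5p arm in Mir181a-1, Mir181b-1, Mir181a-2 and Mir181b-2, and there is none in Mir181c and Mir181d.

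Reads that map to several places were listed apart from the gene counts, as 2156563 reads (30.2% of all reads) in replicate 1 and 2971792 (29.9%) in replicate 2. The files do not say which genes they came from. For Mir181a-1, Mir181a-2, Mir181b-1 and Mir181b-2 the counts below are therefore of reads that could be given to 1 place, and they do not measure the amount of miR-181a-5p or miR-181b-5p.

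The cluster of Mir181a-1 and Mir181b-1 lies on chromosome 1 (mm10, plus strand), Mir181a-1 at chr1:137966455-137966541 and Mir181b-1 at chr1:137966639-137966718, with 97 bases between the hairpins. Both are inside an intron of the non-coding gene Gm4258 on the same strand. All 80 bases of Mir181b-1 and 11 bases at the end of Mir181a-1 also lie in an exon of the lincRNA A430106G13Rik, and both sit in an intron of the lincRNA Gm26936 on the minus strand. Mir181a-2 at chr2:38852735-38852810 and Mir181b-2 at chr2:38853830-38853918 lie on the plus strand of chromosome 2, 1019 bases apart. They are opposite an intron of Nr6a1, which codes for an orphan nuclear receptor and runs on the minus strand. Mir181b-2 is also opposite an exon of the unclassified gene Gm44144. Mir181d at chr8:84178716-84178787 and Mir181c at chr8:84178873-84178961 lie on the minus strand of chromosome 8, 85 bases apart, in an intron of Nanos3, a gene known for its role in germ cells. On the strand opposite the hairpins, 0 counts were found at all 6 genes in both libraries, which allows up to 3 counts, or 0.799 CPM in replicate 1 and 0.584 CPM in replicate 2.

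Depth was 3754895 own-strand gene counts in replicate 1 and 5133949 in replicate 2, where the own strand is the strand of the gene. Levels are given as CPM, a gene's counts scaled to a common total of own-strand gene counts. The tissue label was checked against 10 striated muscle miRNA genes, of which 9 were listed. They held 8.13% and 8.94% of counts, nearly all from Mir206 at 83323 ± 5480 CPM (SD, n = 2). As for the Mir181 genes, only reads that could be given to 1 place entered these counts. A muscle gene with an arm identical to another gene's can thus be undercounted. The part of Mir206 in all muscle miRNA was not measured. The libraries differed in many genes, and 1 such difference is given before the results. A list of 7 epithelial miRNA genes, led by Mir203, made up 0.569% of the replicate 1 counts and 0.0230% of those of replicate 2. Leaving these genes out of the total gave the Mir181 family a mean share of 0.301% in place of 0.300%. Counts of the 2 libraries differed with a chi-square of 281 per degree of freedom over all tested genes and 43.1 over the 6 Mir181 genes, so they were not treated as 1 library deposited in duplicate.

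The 6 genes together held 11605 counts in replicate 1, or 0.309% of all gene counts there (exact Clopper-Pearson 95% interval 0.303 to 0.315). In replicate 2 they held 14962 counts or 0.291% (0.287 to 0.296), which gives a mean of 0.300% ± 0.0125 (SD, n = 2). In bulk tissue, fewer cells of a type and less RNA per cell cannot be told apart. Intervals cover the counting error of reads within 1 library only, and not the spread between pups. The tables carry no molecular identifiers, so copies of 1 molecule could not be told apart from separate molecules.

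Mir181c and Mir181d held most of the family's counts in both pups. Mir181c, the gene with the highest count, had 5698 counts or 1517 CPM in replicate 1 and 7784 counts or 1516 CPM in replicate 2. Its mean of 1517 ± 0.922 CPM put it 69th among the listed genes. Mir181d, transcribed from the same strand downstream of it, had 2706 counts (721 CPM) and 2877 counts (560 CPM), a mean of 641 ± 113 CPM and rank 106. In CPM the level of Mir181c was nearly the same in the 2 pups, but after TMM scaling, a normalization that assumes most genes keep their level, it was 1448 and 1589 CPM. The level of Mir181d was higher in replicate 1 on both scales.

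On chromosome 1 the 2 genes were far apart in level. Mir181a-1 had 1874 counts (499 CPM) in replicate 1 and 2717 counts (529 CPM) in replicate 2, a mean of 514 ± 21.3 CPM and rank 115. Mir181b-1 had only 20 and 19 counts, or 5.33 CPM (95% interval 3.25 to 8.23) and 3.70 CPM (2.23 to 5.78), and ranked 291st. Both pups showed this gap: Mir181a-1 was 93.7 times Mir181b-1 in replicate 1 (60.5 to 153.8) and 143.0 times in replicate 2 (91.4 to 237.9). Each of these genes shares its 5p arm with a gene on chromosome 2 and has a 3p arm of its own.

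On chromosome 2 the order of the letters was the opposite, with Mir181b-2 above Mir181a-2. Mir181b-2 had 1014 counts (270 CPM) and 897 counts (175 CPM), a mean of 222 ± 67.4 CPM. Mir181a-2 had 293 counts (78.0 CPM) and 668 counts (130.1 CPM), a mean of 104 ± 36.8 CPM. Mir181b-2 was 3.46 times Mir181a-2 in replicate 1 (3.04 to 3.95) and 1.34 times in replicate 2 (1.21 to 1.49), so the order held in both pups but the size of the gap did not.

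The levels of the 6 genes stood in the same order in both libraries: Mir181c, Mir181d, Mir181a-1, Mir181b-2, Mir181a-2 and Mir181b-1. The lower value of Mir181d lay 31.2 CPM above the higher value of Mir181a-1, so the ranges of those neighbours did not overlap. That gap was less than the 160 CPM by which Mir181d differed between the pups, so it did not exceed the spread between pups. The same held for Mir181b-2 and Mir181a-2, whose ranges were 44.6 CPM apart while Mir181b-2 varied by 95.3 CPM. The other 3 neighbouring steps were wider than the difference between the pups in either gene.

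**Figure D2:**
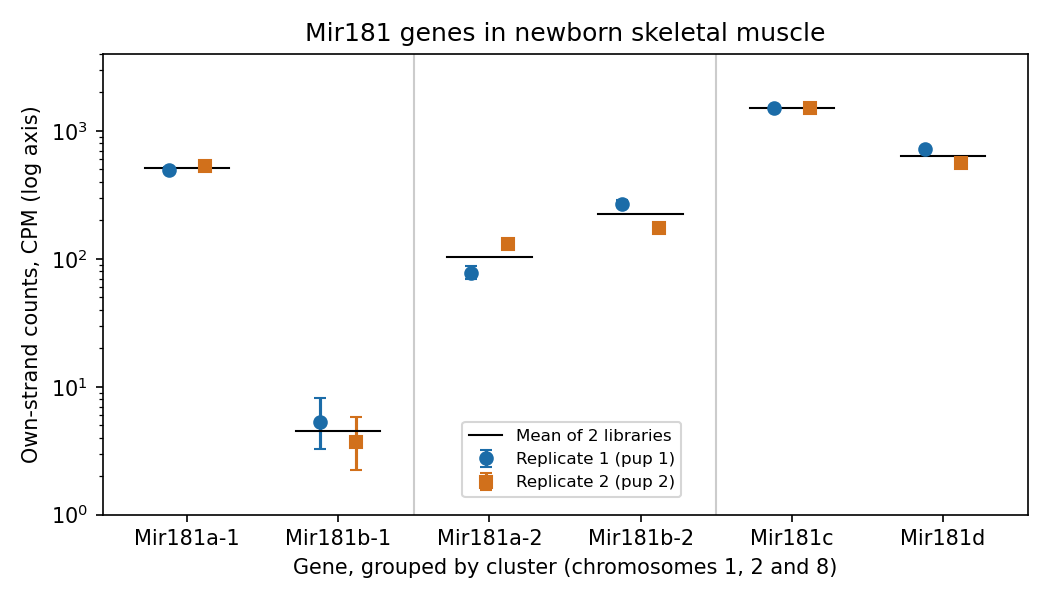
Level of each Mir181 gene in CPM of own-strand counts on a log axis, by cluster, for replicate 1 (circles) and replicate 2 (squares), with exact 95% intervals for counting error and the mean of the 2 libraries as a line. Mir181c lies highest at 1517 and 1516 CPM, Mir181b-1 lowest at 5.33 and 3.70 CPM, and the symbols of Mir181a-2 and Mir181b-2 move in opposite directions between the libraries.

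Summed by cluster, the order was chromosome 8, chromosome 1 and chromosome 2 in both libraries. The Mir181c and Mir181d cluster held 72.4% of the family's counts in replicate 1 (95% interval 71.6 to 73.2) and 71.3% in replicate 2 (95% interval 70.5 to 72.0), a mean of 71.8% ± 0.823 (SD, n = 2). The Mir181a-1 and Mir181b-1 cluster held 16.3% (15.7 to 17.0) and 18.3% (17.7 to 18.9), a mean of 17.3% ± 1.39. The Mir181a-2 and Mir181b-2 cluster held 11.3% (10.7 to 11.9) and 10.5% (9.97 to 11.0), a mean of 10.9% ± 0.567. The chromosome 8 cluster thus had 4.44 and 3.90 times the counts of the chromosome 1 cluster, and 6.43 and 6.81 times those of the chromosome 2 cluster. The chromosome 1 cluster had 1.45 and 1.75 times the counts of the chromosome 2 cluster.

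The clusters differ in how much of their RNA a read can identify. In both genes of the chromosome 8 cluster both arms are their own, while in all 4 genes of the other clusters the 5p arm is shared, so reads of the whole 5p arm could be counted at a single place only in the first. How much this adds to the higher counts of Mir181c and Mir181d was not tested.

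Inside the clusters, the division between the genes differed between the pups on chromosomes 2 and 8 and was alike on chromosome 1. Mir181a-1 held 98.9% and 99.3% of its cluster, with overlapping intervals (98.4 to 99.4 and 98.9 to 99.6). Mir181c held 67.8% of its cluster in replicate 1 (66.8 to 68.8) and 73.0% in replicate 2 (72.2 to 73.9). Mir181a-2 held 22.4% in replicate 1 (20.2 to 24.8) and 42.7% in replicate 2 (40.2 to 45.2). The intervals of these last 2 genes did not overlap between the libraries, and neither did those of the chromosome 1 cluster's share of the family.

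**Figure D3:**
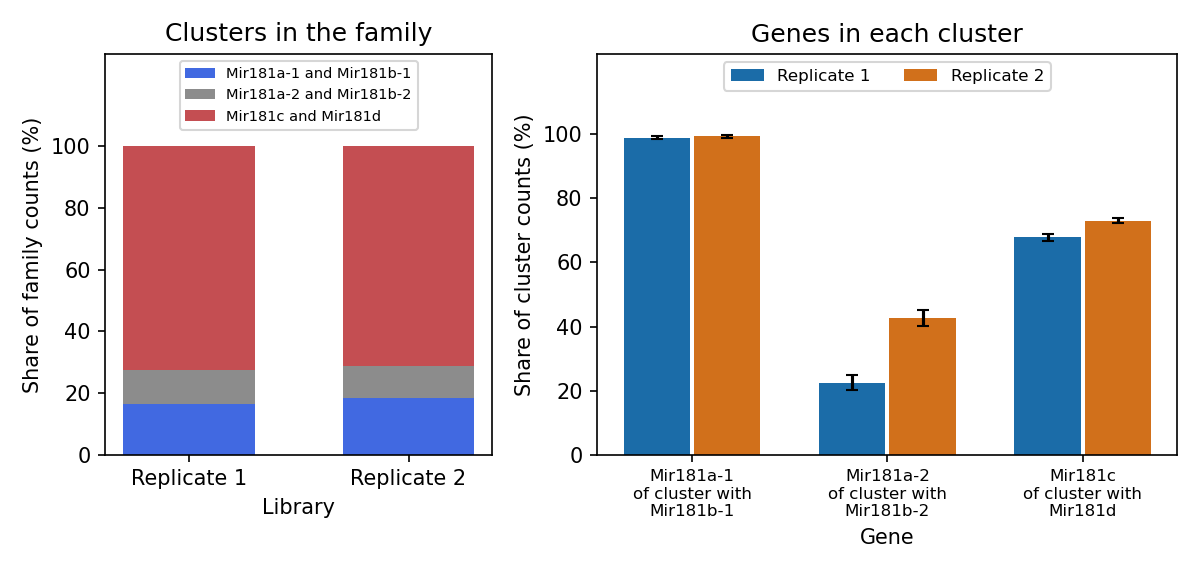
Left, the share of the family's counts held by each cluster in the 2 libraries, as stacked bars in percent. Right, the share of each cluster's counts held by its first named gene, with exact 95% intervals for counting error. The cluster of Mir181c and Mir181d holds 72.4% and 71.3% of the family, and the share of Mir181a-2 in its cluster is 22.4% in replicate 1 and 42.7% in replicate 2.

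The genes that share a 5p arm were also set against each other. Where in the hairpin their reads lie is not given by the tables. A read that stays inside the stretch shared by 2 genes, which spans the whole 5p arm, fits both. Such a read could not be given to 1 of them. Of the counts of Mir181a-1 and Mir181a-2 together, Mir181a-1 held 86.5% in replicate 1 (85.0 to 87.9) and 80.3% in replicate 2 (78.9 to 81.6). For the b genes the balance lay with chromosome 2, since Mir181b-1 held 1.93% (1.19 to 2.97) and 2.07% (1.25 to 3.22) of the counts of Mir181b-1 and Mir181b-2. Within each pup, then, the a gene with more counts was on chromosome 1 and the b gene with more counts was on chromosome 2.

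Most listed genes with a RefSeq mature sequence have no arm in common with another gene. RefSeq mature sequences were matched to 916 listed genes, of which 87 had an arm identical to that of another gene and 829 did not. At least 10 counts in both libraries were found for 39 of the 87 (44.8%) and 246 of the 829 (29.7%). Over all genes of each kind the median level was 1.09 CPM with a shared arm and 0.292 CPM without. Over the detected genes alone the order was the reverse, at 64.7 CPM with a shared arm and 285 CPM without. Among the 87, Mir181a-1 ranked 6th, Mir181b-2 13th, Mir181a-2 14th and Mir181b-1 37th by mean CPM. All 4 lay above the median of the 87, and at 4.51 CPM Mir181b-1 lay below the median of the 39 detected genes. These are descriptions with no test.

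Between the 2 libraries, 5 of the 6 genes differed beyond counting error and none reached 2-fold. The 2 counts of a gene were compared by a two-sided exact binomial test after TMM scaling. Genes with a summed count of 10 or more entered, 373 in all, and p-values were adjusted over them by the Benjamini-Hochberg method, with a threshold of 0.05. Of all tested genes 49.1% passed, so 5 of 6 is read against that share, and the counts are of 2 libraries and not of conditions. That share depends on the counts required. With a summed count of at least 50, 179 of 282 genes passed, 5 Mir181 genes among them. Mir181a-1, Mir181a-2 and Mir181c were higher in replicate 2 (Mir181c not under total-count scaling), in which direction 26.0% of all genes passed, and Mir181d and Mir181b-2 were higher in replicate 1, as were 23.1% of all genes. Of all genes 5.09% passed with at least 2-fold, and 0 of the Mir181 genes did, while 5 had an unadjusted exact binomial p under the threshold, as did 52.3% of all genes.

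The largest differences were those of the chromosome 2 genes, and they pointed in opposite directions. Mir181a-2, with 293 and 668 counts, had a log2 ratio of replicate 2 over replicate 1 of 0.87 (95% interval 0.67 to 1.08, adjusted p = 2.8e-18, exact binomial test). Mir181b-2, with 1014 and 897 counts, had a log2 ratio of -0.49 (-0.62 to -0.36, adjusted p = 3.8e-13). After TMM scaling their sum hardly changed, with a log2 ratio of -0.057 (-0.16 to 0.050). With total-count scaling the sum was lower in replicate 2, with a log2 ratio of -0.19. Of all tested genes, 89.5% had a smaller ratio in size than Mir181a-2 and 71.8% a smaller one than Mir181b-2.

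The remaining genes differed less. Mir181a-1 had a log2 ratio of 0.22 (0.13 to 0.31, adjusted p = 1.2e-06, exact binomial test), Mir181c 0.13 (0.084 to 0.18) and Mir181d -0.23 (-0.30 to -0.15). For Mir181b-1 it was -0.39 with an interval from -1.38 to 0.59, so no difference was detectable at 20 and 19 counts. Over the 6 genes the median size of the log2 ratio was 0.31, against 0.32 over all tested genes. The summed log2 ratio was 0.21 (0.13 to 0.30) for the chromosome 1 cluster. It was 0.027 (-0.015 to 0.068) for the chromosome 8 cluster and 0.050 (0.015 to 0.085) for the family, and both change sign when libraries are scaled by total counts, to -0.11 and -0.085. That scaling shifts every log2 ratio by -0.13, which took that of Mir181c to -0.0013 and ended the calls of Mir181c and Mir181a-1 (adjusted p = 0.097 for Mir181a-1, exact binomial test), leaving 3 of 6 beside 48.8% of all genes. The opposite directions of Mir181a-2 (0.74) and Mir181b-2 (-0.63) held under it.

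**Figure D4:**
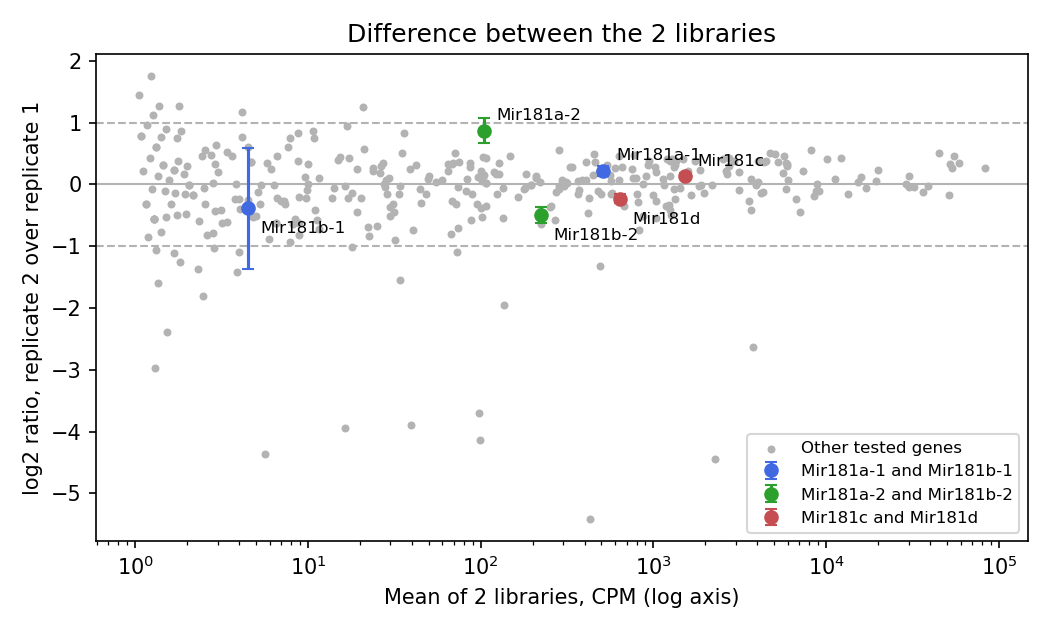
log2 ratio of replicate 2 over replicate 1 against the mean level of the 2 libraries in CPM (log axis) for all 373 tested genes, with the Mir181 genes coloured by cluster and drawn with 95% intervals for counting error. Dashed lines mark 2-fold. All 6 Mir181 genes lie between these lines, and Mir181a-2 (0.87) and Mir181b-2 (-0.49), neighbours in the genome, lie on opposite sides of 0.

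Other miRNA genes were set beside the family from lists for cell types the tissue could hold. Blood cell genes, chosen because miR-181 is best known there, summed to 1062 CPM in replicate 1 and 758 CPM in replicate 2, with 6 of 7 listed. Their highest member was Mir223, a gene of myeloid cells, at 420 ± 120 CPM. Of these 6 genes, 2 were higher in replicate 1 beyond counting error and 1 in replicate 2. Mir126a, a gene of endothelial cells, had 38672 ± 2989 CPM. After TMM scaling it was higher in replicate 1 beyond counting error, but only slightly. Its log2 ratio of replicate 2 over replicate 1 was -0.023, at 153145 counts in replicate 1 and 187689 in replicate 2. Neural genes summed to 1348 and 1580 CPM, led by Mir128-1, with 11 of 13 listed and 3 at 0 counts in both libraries. Of the 5 neural genes tested, 1 was higher in replicate 1 and 2 in replicate 2. For comparison, the Mir181 family summed to 3091 and 2914 CPM. All of these sums hold only reads that could be given to 1 place. For a gene with an arm identical to another gene's, a low count or 0 counts need not mean little miRNA. The lists and the family can lose different parts of their reads in this way. Their sums therefore do not rank the amounts of miRNA. Among all tested genes, 23.1% were higher in replicate 1 beyond counting error and 26.0% in replicate 2. The count of each list is read beside those shares. By the same measure, 6 of 9 muscle genes were higher in replicate 2 and 0 in replicate 1. Of the epithelial genes 7 of 7 were higher in replicate 1. The part of these cell types in the differences of the Mir181 genes was not tested.

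The genes most like the leading gene of each cluster were found by the distance between their log2(CPM + 1) values in the 2 libraries, among 310 other genes with at least 10 counts in both. Closest to Mir181c were Mir484 (1593 ± 66.8 CPM, distance 0.12) and Mir324 (1420 ± 133 CPM, distance 0.19). Closest to Mir181a-1 were Mir210, the hypoxia-linked miRNA gene, at 496 ± 13.3 CPM (distance 0.074) and Mir323, of the imprinted Dlk1-Dio3 region, at 538 ± 46.3 CPM (distance 0.11). Closest to Mir181b-2 were Mir224 at 221 ± 61.2 CPM (distance 0.040) and Mir16-2 at 224 ± 82.6 CPM (distance 0.099). Over 2 libraries such a distance describes level and little else.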

How the data were processed

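Small RNA libraries from total RNA of skeletal muscle of 2 pups were analysed. Per the text deposited beside each library's table, the authors aligned reads to mm10 and deposited raw read counts per miRNA gene of annotation M4, library by library. The aligner and counting program are not given in the sources used here. The 3 count columns have no header. The first equals the sum of the others in every gene, and the second was read as own-strand counts and used. The 4 leading lines, reads not counted in a gene, stayed out of totals.

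Names and coordinates came from GENCODE M21 (mm10), which matched 1894 of 1973 identifiers; the identifier of Mir181c has another version there. Scaling used edgeR 4.0.16 in R 4.3.3, with DESeq2 1.42.0 size factors as an alternative, and 0.5 was added to each count in log2 ratios. Intervals and tests used scipy 1.17.1. No deviation between pups can be separated from dissection or library preparation, and the p-values, from 1 count per library, cover counting error only.

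Members and lists were chosen with earlier results of these data known. Named genes are the 6 members, the 2 closest genes to each cluster's leading gene, and the highest gene of each list (striated muscle, blood cells, endothelium, epithelium, neural). Other names in the closing section were chosen after their values were seen. Alternatives were the counts of both strands, other denominators, scalings, filters and pseudocounts, each library alone, and other window lengths.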

Additional observations from a re-analysis of the deposited data

How the results depend on the processing

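The share of the family depended on its denominator. In the order family, chromosome 1 cluster, chromosome 2 cluster and chromosome 8 cluster, it was 0.268%, 0.0463%, 0.0292% and 0.193% with counts of either strand, 0.156%, 0.0270%, 0.0170% and 0.112% of all reads, and 0.608%, 0.105%, 0.0661% and 0.437% without the 10 most abundant genes. Each library alone gave 0.291% to 0.309%, 0.0504% to 0.0533%, 0.0305% to 0.0348% and 0.208% to 0.224%. Total-count scaling gave log2 ratios of -0.085 for the family and -0.11 for the chromosome 8 cluster, both of opposite sign to TMM scaling, 0.079 and -0.19 for the chromosome 1 and 2 clusters, and -0.0013 for Mir181c, and 3 genes past the threshold. Without the 2-fold minimum 5 Mir181 genes and 183 genes in all were called. Defining shared genes by a 20-base stretch gave 923 genes with 74 detected and a median of 0 CPM. The detected part and the median of these 923 were both lower than in the genes without a shared arm (246 of 829, 0.292 CPM). The higher values of shared genes over all genes of each kind thus depended on the definition. For the 87 genes with a shared arm the median was 1.09 CPM, from 0.974 to 1.60 CPM in either library alone. The division among and within clusters could not change with counts of either strand, since the opposite strand held 0 counts at these genes. With 2 libraries, either one alone lies within 1 SD of the mean by construction. With at least 50 counts required, Mir181b-1 was not tested. The denominator without epithelial genes was chosen after seeing the data. No paired analysis was possible because the series has no second group. Depth limits Mir181b-1, at 20 and 19 counts.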

Other observations

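The opposite movement of Mir181a-2 and Mir181b-2 was set beside other neighbouring miRNA genes, a comparison chosen after their values were seen. Over 101 pairs of adjacent genes on the same strand within 10 kb, with at least 10 counts in both libraries, the log2 ratios of the 2 genes differed by a median of 0.17. For Mir181a-2 and Mir181b-2 they differed by 1.36, the highest of the 101 pairs, followed by Gm27379 and Mir544 (1.26) and Mir18b and Mir106a (1.11). Scaling leaves the size of such a difference as it is, since both genes shift alike, but it moves their directions. With TMM scaling, both genes passed the adjusted threshold in opposite directions in 8 pairs, among them Mir181a-2 with Mir181b-2 and Mir181d with Mir181c (0.36, rank 31). With total-count scaling, an alternative added after seeing the data, this held in 5 pairs, among them Mir181a-2 with Mir181b-2 but not Mir181d with Mir181c. The pairs are not independent, because some share a gene.

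By level, the distance between Mir181a-1 and Mir181b-1 was large but not the largest. Their mean levels differed by 6.83 on the log2 scale, rank 12 of the 101 pairs, whose median was 3.04. For Mir181a-2 and Mir181b-2 the difference was 1.10 (rank 79), and for Mir181c and Mir181d it was 1.24 (rank 76).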
